A study of Danio rerio with 16 samples.

Results

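The proteasome and the chaperonin CCT act at opposite ends of a protein's life, and their subunit genes were followed here across all 16 zebrafish arrays of a study of the foggy mutant. Members were chosen by name: probe sets whose only gene symbol begins with psma to psmg and a digit (proteasome), or is tcp1 or cct2 to cct8 (chaperonin). This gave 70 of 15502 probe sets, for 58 of 8793 gene symbols. Of these, 6 probe sets match by name only: psme3ip1 encodes a protein that binds the activator encoded by psme3, and psmc3ip a cofactor of meiotic recombination. Without them, 55 probe sets stood for 48 proteasome genes and 9 probe sets for 8 chaperonin genes.

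The proteasome degrades proteins that carry ubiquitin chains. Its 20S core is a barrel of outer alpha and inner beta rings, with the cutting sites inside on some of the beta subunits. The 19S cap recognises ubiquitin, unfolds the substrate with a ring of ATPases and feeds it into the core. CCT is a double ring built from 8 different subunits that folds newly made proteins, above all actins and tubulins. Both complexes are needed in every cell, and their subunits are made in fixed proportions.

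RNA was measured on 1-colour Affymetrix arrays in 4 groups. Samples labelled as foggy mutants (6 arrays) and as wild type (4 arrays) were taken at the stage labelled 36 h, with embryonic brain given as the material. Embryos of the 12-somite stage had received an RNA named Foggy(DelCter) (3 arrays) or a control RNA (3 arrays). The labels give no allele, strain, RNA dose or number of embryos in a sample. Separate clutches or extractions are not stated for the replicates, and the p-values given here rest on a spread that may be technical. All 16 source labels name brain and adrenal medulla. The highest tag control (an unused control probe set) of an array read 10.8 to 34.4 units. Of 3 adrenal medulla genes listed, th and dbh averaged at most 6.97 and 10.03 units in any group. The third, chga, which encodes a protein of secretory granules, averaged 87.3 units in the arrays labelled mutant of title numbers 1 to 3 and 69.3 units in their wild-type array, 36.9 units in mutants and 37.0 units in wild type of title numbers 4 to 6, and 7.51 units after Foggy(DelCter) RNA and 9.41 units after control RNA.

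The 36 h arrays fall into title numbers 1 to 3 (3 labelled mutant, 1 wild type) and 4 to 6 (3 and 3). The sets stand apart. Array medians were 65.7 to 66.4 intensity units in the first set, against 47.6 to 53.1 in the second. Summed levels of 12 neuronal genes ran from 16175 to 16441 units in the first set, against 1705 to 4125 units in the second. For 9 genes of liver and the yolk layer the sums were 841 to 1140 units in the first set, against 35585 to 40427 units in the second. The log2 ratio of the 3′ to the 5′ gapdh control probe sets, a sign of RNA quality, was 0.83 to 0.95 in the first set. In the second set it was 0.84 in mutant 4 and 0.52 to 0.61 in the other 5 arrays. Its part in the subunit values was not tested. Set and material cannot be told apart. The mutant comparison is therefore given within each set first, and over all 10 arrays with the set as a block.

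The mutation named foggy lies in supt5h, whose product travels with RNA polymerase II and sets its pace during elongation. In numbers 4 to 6 its probe set read 40.1, 47.0 and 38.6 units in mutants, against 197, 231 and 166 units in wild type. The log2 difference was -1.73 ± 0.13 (SE), with an adjusted p of 6.80e-05 (limma, Benjamini-Hochberg over all probe sets tested). In numbers 1 to 3 it read 258, 245 and 254 units in the arrays labelled mutant and 210 units in the wild-type array. This probe set therefore went with the label in numbers 4 to 6 and not in numbers 1 to 3. At 12 somites it read 477, 393 and 414 units after Foggy(DelCter) RNA and 436, 393 and 397 units after control RNA, with a log2 difference of 0.06 ± 0.12 (limma adjusted p = 0.802). Whether this probe set can detect the injected RNA was not tested.

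Most members gave strong signal: 58 of the 70 probe sets exceeded the highest tag control of the array on all 16 arrays. Another 8 did so on some arrays, and 4 on none, namely psmb8a, psmb13a and 1 probe set each of psmc1b and psmc3ip. A probe set was tested when its mean over the fitted arrays reached the 30th percentile of all probe sets. That kept 47 proteasome and 9 chaperonin probe sets in numbers 4 to 6, and 49 and 9 at 12 somites. Levels per array are deposited intensities, given as group mean ± SD where summarised. Differences are on the scale of log2(intensity + 16) with their SE, and the 36 h arrays were quantile normalized first.

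Within numbers 4 to 6, the proteasome calls were mainly higher in mutants, and the chaperonin had a single call, which was lower. Of 47 proteasome probe sets tested, 11 rose, 1 fell and 35 did not pass the test. Over all 10851 probe sets tested, 8.95% were called higher and 10.4% lower. The median log2 difference was 0.23 for the proteasome, -0.06 for the chaperonin and 0.06 for all probe sets tested. Among the 9 chaperonin probe sets none rose, 1 fell and 8 did not pass, with 1 at an unadjusted p under 0.05, against 35.0% of all probe sets tested. In deposited intensity, all mutant arrays lay above all wild-type arrays for 24 of 47 proteasome probe sets (51.1%), against 21.2% of all probe sets tested. The lower direction held for 2 proteasome and 2 chaperonin probe sets, against 18.4% of all. The count of 11 was lower in each fit that left out 1 array. Leaving out mutant 4, 5 or 6 gave 5, 3 or 7 higher proteasome calls, and leaving out wild type 4, 5 or 6 gave 7, 4 or 6. Shares of all probe sets called in those smaller fits are not given here, so the loss is not read as particular to the proteasome genes.

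**Figure D1:**
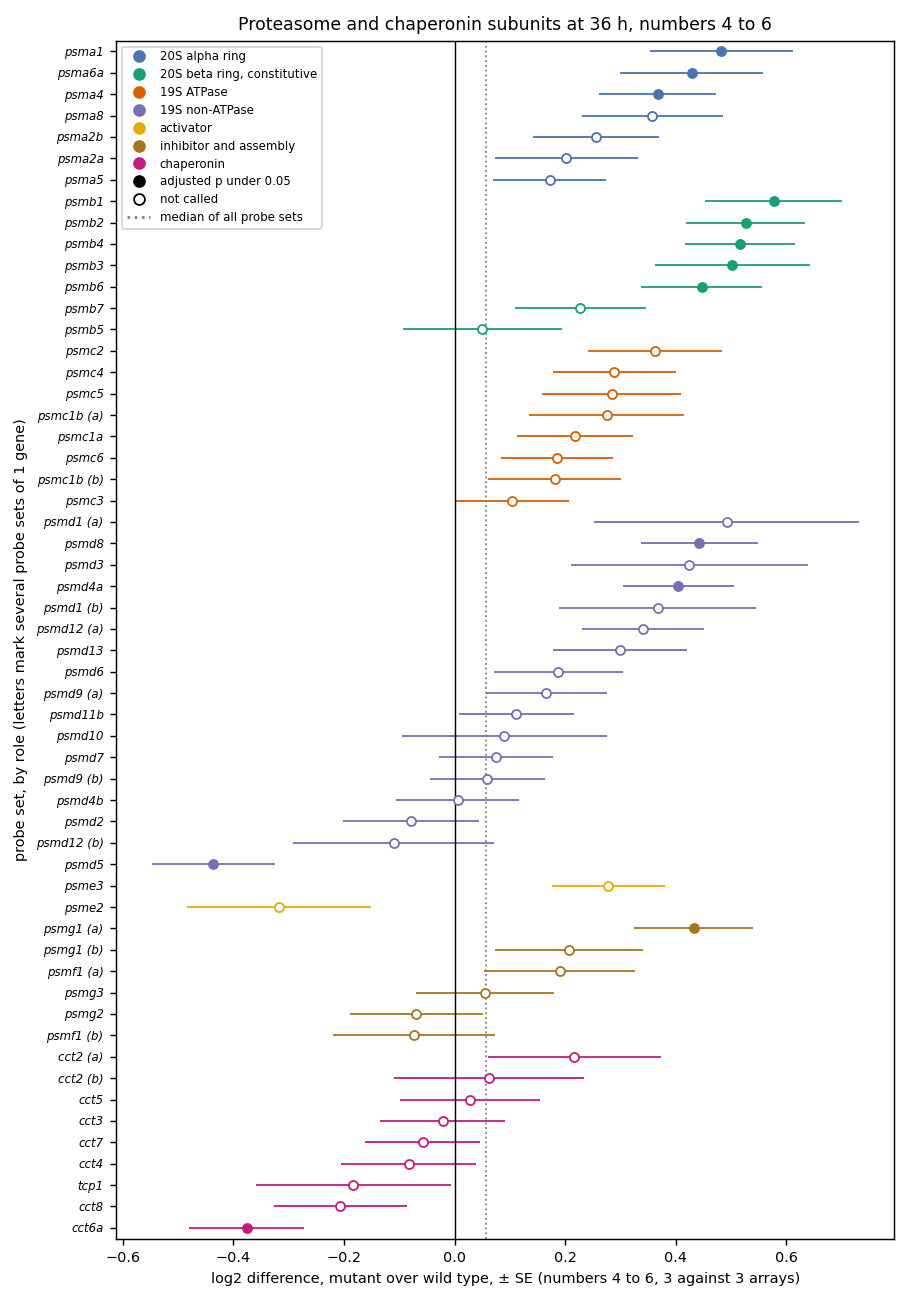
Log2 difference (x axis, mutant over wild type, title numbers 4 to 6, 3 against 3 arrays) of every proteasome and chaperonin probe set tested, in rows grouped by role, with bars of ± 1 SE. Filled points passed the test: 11 higher and 1 lower proteasome probe sets and 1 lower chaperonin probe set. All 7 constitutive beta and all 7 alpha probe sets lie right of 0, and the chaperonin rows scatter around it.

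The constitutive beta ring held 5 of the 11 rises, out of 7 genes tested, against 8.95% of all probe sets tested. Its median log2 difference was 0.50. psmb1, a non-catalytic beta subunit, read 2573, 2689 and 2617 units in mutants, against 1964, 1918 and 1530 units in wild type. It was 1.49-fold higher, a log2 difference of 0.58 ± 0.12 (limma adjusted p = 0.0130). For psmb2, also non-catalytic, mutants read 1706, 1839 and 1599 units, against 1197, 1207 and 1093 units in wild type. The groups of both genes did not overlap. psmb2 was 1.44-fold higher (log2 0.53 ± 0.11, limma adjusted p = 0.0107). psmb4, a further non-catalytic subunit, read 2042, 2153 and 2058 units in mutants and 1513, 1468 and 1410 units in wild type. Its log2 difference was 0.52 ± 0.10 (limma adjusted p = 0.00856), the smallest p among the members, and its groups did not overlap.

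The genes of the 3 catalytic beta subunits gave different results. psmb6, which carries the caspase-like site, averaged 1941 ± 111 units in mutants and 1410 ± 153 in wild type (SD, n = 3 each), and rose by 0.45 ± 0.11 on the log2 scale (limma adjusted p = 0.0216). psmb7, the trypsin-like subunit, differed by 0.23 ± 0.12 (limma adjusted p = 0.204). psmb5, the chymotrypsin-like subunit, differed by 0.05 ± 0.14 (limma adjusted p = 0.835), and its arrays overlapped, with 797, 783 and 595 units in mutants and 741, 706 and 583 in wild type. Whether these 3 differ from each other was not tested. The structural psmb3 rose by 0.50 ± 0.14 (limma adjusted p = 0.0351). Only psmb1, psmb2 and psmb4 stayed past the threshold in each of 6 fits that left out 1 array.

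**Figure D2:**
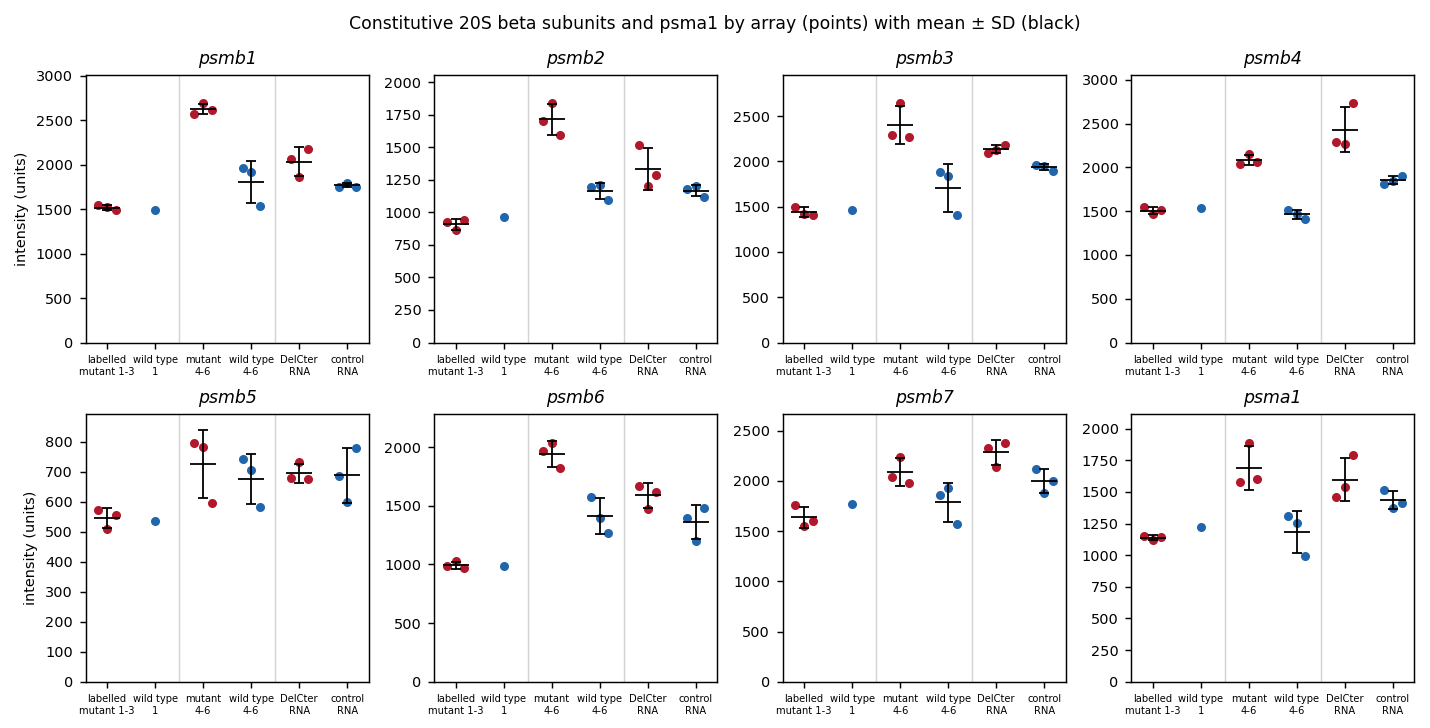
Deposited intensity (y axis, linear, from 0) of the 7 constitutive beta subunit genes and psma1 in each array, by group (x axis), with mean ± SD in black where a group has 3 arrays. In numbers 4 to 6 mutants lie above wild type without overlap in all panels but psmb5, while the 3 arrays labelled mutant of numbers 1 to 3 lie beside their single wild-type array.

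In the alpha ring, which gates the barrel, 3 of 7 probe sets rose, against 8.95% of all probe sets tested. All 7 had positive differences, with a median of 0.36. psma1 read 1579, 1890 and 1598 units in mutants, against 1308, 1253 and 993 units in wild type. Its log2 difference was 0.48 ± 0.13 (limma adjusted p = 0.0301), and it passed in 2 of 6 fits that left out 1 array. psma4 read 1942, 2083 and 1831 units in mutants, against 1573, 1594 and 1389 units in wild type. Both genes were separated by group. psma4 rose by 0.37 ± 0.11 (limma adjusted p = 0.0389) and psma6a by 0.43 ± 0.13 (limma adjusted p = 0.0453), and neither passed once any array was left out. psma6l, an alpha-like gene, read at most 33.1 units on any array and was not tested.

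Wild type 6 was the lowest of the 3 wild-type arrays for all 14 core probe sets. It was also the lowest for 17 of 25 probe sets of the 19S cap and for 7 of 9 of the chaperonin, against 39.0% of all 10851 probe sets tested. The median pairwise correlation of the 14 core genes was 0.92 over the 6 arrays of numbers 4 to 6 and 0.69 over all 16 arrays. These are descriptions, since all points share arrays and scaling. The difference of psmb1 ranged from 0.46 to 0.64 over the 6 fits that left out 1 array.

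In the 19S cap, which was not tested against the core, none of 8 ATPase probe sets passed, against 19.3% of all probe sets tested. All 8 had positive differences, between 0.10 and 0.36 with a median of 0.25. psmc2 read 1420, 1544 and 1448 units in mutants, against 1253, 1197 and 945 units in wild type (log2 0.36 ± 0.12, limma adjusted p = 0.0624). psmc4 read 1331, 1502 and 1230 units in mutants and 1107, 1121 and 996 in wild type (log2 0.29 ± 0.11, limma adjusted p = 0.0975). Both ATPases were separated by group in deposited intensity without passing the test.

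Among 17 probe sets of non-ATPase 19S genes 2 rose and 1 fell, against 8.95% higher and 10.4% lower among all probe sets tested. Their median was 0.17. psmd8, a lid subunit, read 1757, 1915 and 1720 units in mutants, against 1386, 1340 and 1192 units in wild type (log2 0.44 ± 0.11, limma adjusted p = 0.0197). psmd4a, one of a pair of zebrafish genes for a ubiquitin receptor of the cap, read 964, 1067 and 1023 units in mutants, against 742, 722 and 722 units in wild type (log2 0.40 ± 0.10, limma adjusted p = 0.0233). Its partner gene psmd4b read 405, 383 and 393 units in mutants and 428, 353 and 388 in wild type, and its groups overlapped. psmd3, of the lid, differed by 0.42 ± 0.21 on the log2 scale (limma adjusted p = 0.189). psmd1, a scaffold of the base, read 672, 686 and 422 units in mutants, against 498, 460 and 268 units in wild type, in the probe set with the larger difference (log2 0.49 ± 0.24, limma adjusted p = 0.176). Its groups overlapped. psmd5 fell: it read 89.0, 97.6 and 82.2 units in mutants, against 139, 133 and 121 units in wild type (log2 -0.44 ± 0.11, limma adjusted p = 0.0259). psmd5 encodes a chaperone that helps assemble the base of the cap and leaves before the cap is complete.

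Of 8 probe sets for activators, inhibitors and assembly factors of the core, 1 rose, against 8.95% of all probe sets tested. psme3, which encodes the nuclear activator of the core, read 743, 710 and 677 units in mutants, against 554, 582 and 562 units in wild type, and did not pass (log2 0.28 ± 0.10, limma adjusted p = 0.0851). psme2, part of the activator linked to interferon in mammals, read 10.2, 25.1 and 21.7 units in mutants, against 27.8, 29.0 and 29.1 units in wild type (log2 -0.32 ± 0.17, limma adjusted p = 0.207). Those values lie near the tag controls. psmg1, one partner of a chaperone pair that starts the alpha ring, rose in 1 of its 2 probe sets: 164, 169 and 178 units in mutants, against 113, 129 and 118 in wild type (log2 0.43 ± 0.11, limma adjusted p = 0.0221). The other psmg1 probe set differed by 0.21 ± 0.13 without passing. psmf1, an inhibitor of the core, read 64.6, 64.9 and 46.0 units in mutants and 47.8, 58.9 and 46.5 in wild type (log2 0.19 ± 0.14, limma adjusted p = 0.354). Of the name matches, 1 of 4 psme3ip1 probe sets rose (log2 0.43 ± 0.13, limma adjusted p = 0.0455).

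The 5 beta genes grouped here as inducible had little signal on any 36 h array. The group is named for subunits that replace catalytic ones in immune cells of mammals, which is not claimed for each of the 5. psmb8a reached at most 11.2 units, psmb13a 16.6, psmb9a 19.5 and psmb12 24.2 over all 16 arrays, where tag controls reached up to 34.4. psmb10 was the exception at 12 somites, with 57.2, 59.5 and 77.4 units after Foggy(DelCter) RNA and 72.6, 65.4 and 58.9 units after control RNA. At 36 h it read 19.7, 12.2 and 21.2 units in mutants of numbers 4 to 6 and 15.1, 13.3 and 11.5 in wild type. The injected groups overlapped, with a log2 difference of -0.02 ± 0.14 (limma adjusted p = 0.942).

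**Figure D3:**
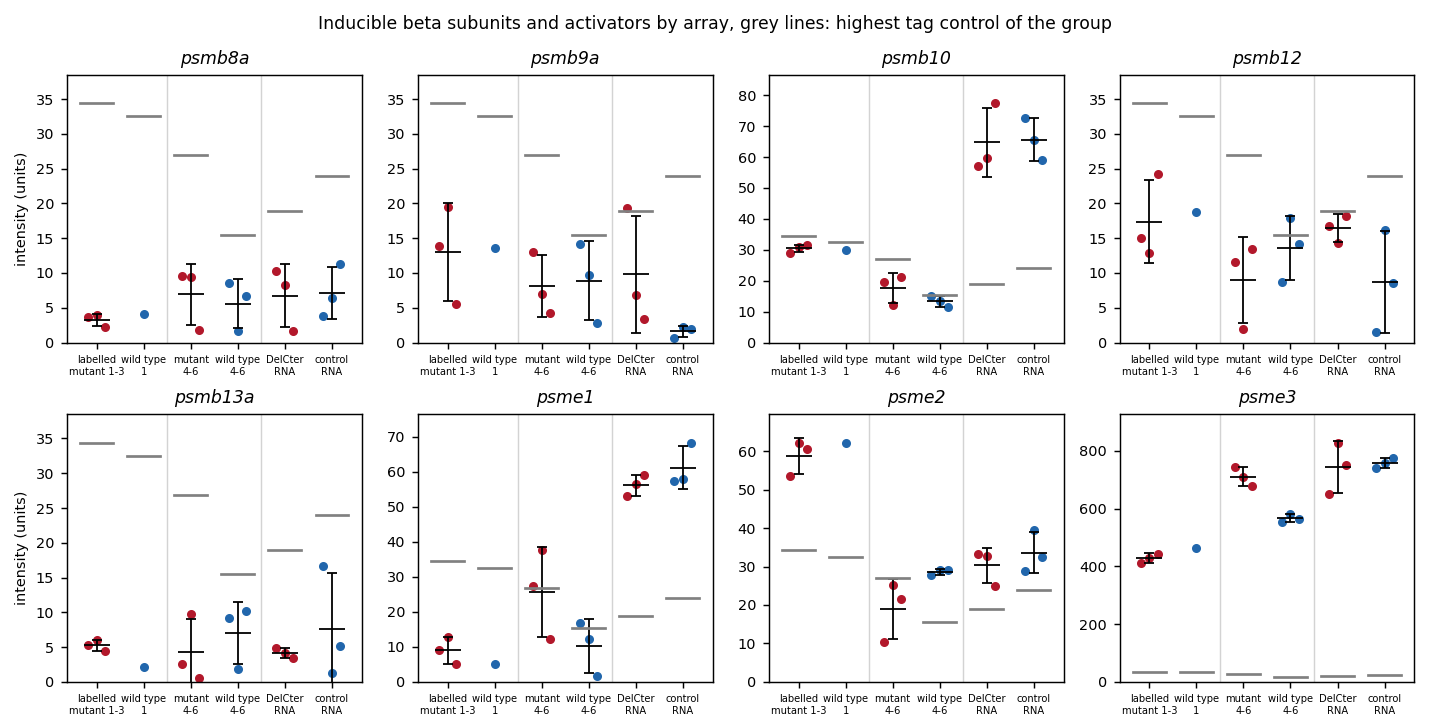
Deposited intensity (y axis, linear, from 0) of 5 inducible beta subunit genes and 3 activator genes in each array, by group (x axis), with mean ± SD in black and the highest tag control of the group as a grey line. psmb8a and psmb13a lie under the grey line in every group, psmb10 and psme1 rise above it at 12 somites, and psme3 is far above it throughout. In numbers 4 to 6, psme1 also passes it in mutants 4 and 5 (27.3 and 37.6 units, line at 26.9). It does so too in wild type 4 (16.7 units, line at 15.4). psme2 lies under the line only in mutants of numbers 4 to 6.

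All 8 chaperonin genes were well measured. In numbers 4 to 6, 1 of their 9 probe sets was called lower, against 10.4% of all probe sets tested. cct6a read 1993, 2162 and 2120 units in mutants of numbers 4 to 6, against 2944, 2696 and 2685 units in wild type. Its groups did not overlap, and it fell by 0.38 on the log2 scale (SE 0.10, limma adjusted p = 0.0342). The call was lost in each of 6 fits that left out 1 array. cct8 read 1397, 1669 and 1781 units in mutants, against 1869, 1919 and 1781 units in wild type, and did not pass (log2 -0.21 ± 0.12, limma adjusted p = 0.250). Its highest mutant array and its lowest wild-type array differ by less than 1 unit.

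The other chaperonin subunits overlapped between mutants and wild type of numbers 4 to 6. tcp1, the founding subunit, read 1723, 1784 and 1207 units in mutants and 1883, 1981 and 1456 in wild type (log2 -0.18 ± 0.18, limma adjusted p = 0.494). cct2 read 1195, 1219 and 1007 units in mutants and 1237, 1238 and 787 in wild type. cct3 read 1377, 1560 and 1386 units in mutants and 1496, 1572 and 1287 in wild type. cct4 read 1742, 2045 and 2043 units in mutants and 2141, 2183 and 1826 in wild type. cct5 read 3282, 3527 and 2918 units in mutants and 3465, 3646 and 3084 in wild type. cct7 read 2325, 2340 and 2176 units in mutants and 2560, 2278 and 2361 in wild type. The log2 differences of cct2, cct3, cct4, cct5 and cct7 lay between -0.08 and 0.06, each with an SE of 0.10 to 0.17, and none passed (limma adjusted p of 0.664 to 0.911).

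**Figure D4:**
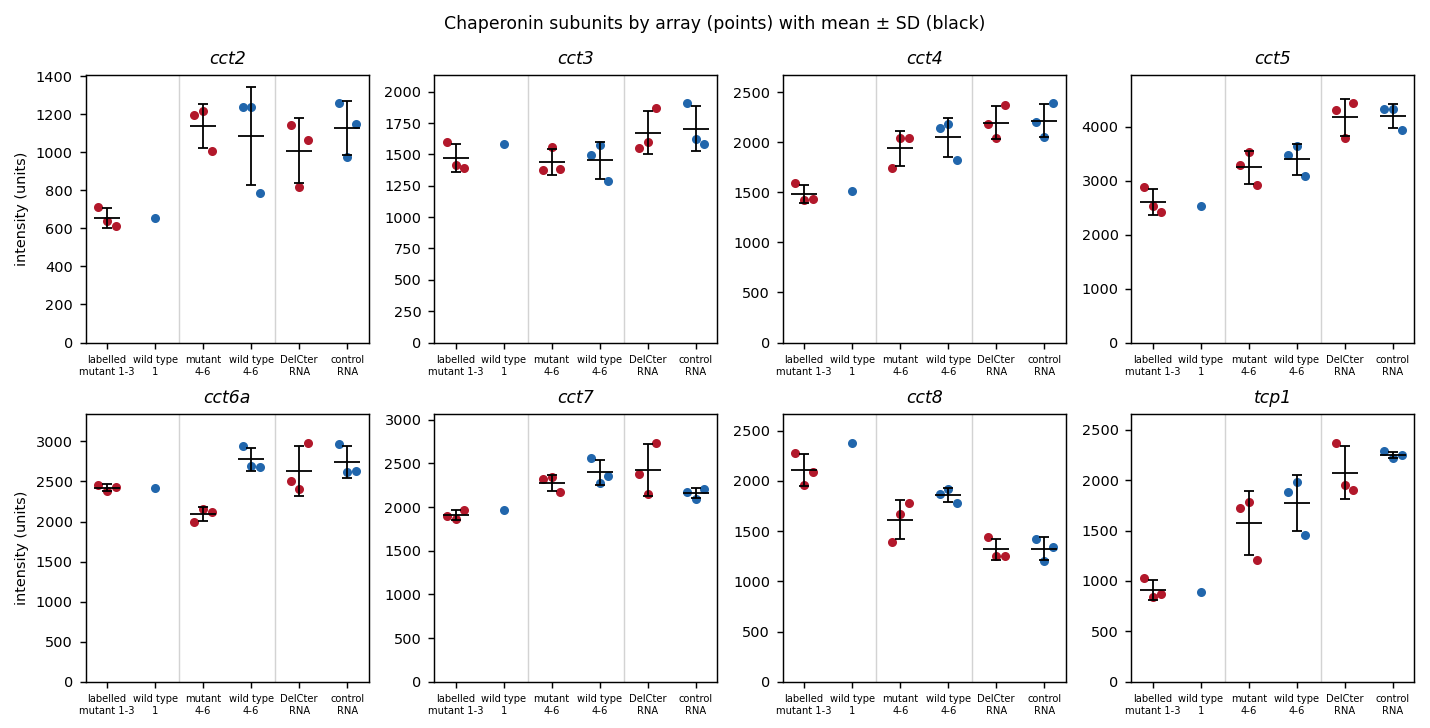
Deposited intensity (y axis, linear, from 0) of the 8 chaperonin genes in each array, by group (x axis), through the brightest probe set of each gene, with mean ± SD in black where a group has 3 arrays. Mutants lie below wild type of numbers 4 to 6 for cct6a, and overlap with them or nearly so in the other panels.

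Genes that work with these complexes were counted from lists chosen by symbol. Of 40 ubiquitin and proteasome partner genes tested in numbers 4 to 6, 5 rose (12.5%, against 8.95% of all probe sets tested) and none fell, with a median of 0.12. The 5 were ube2kb (log2 0.72 ± 0.10), ube2d1a (0.53 ± 0.11) and ube2d2l (0.39 ± 0.10), which are ubiquitin-conjugating enzymes, zfand5a (0.75 ± 0.11), which encodes a zinc finger protein that binds ubiquitin and the proteasome, and vcp (0.37 ± 0.11), an ATPase that extracts ubiquitin-tagged proteins. The proteasome maturation factor gene pomp differed by 0.32 ± 0.11 (limma adjusted p = 0.0645). Of 11 chaperonin partner genes none passed in limma, with 3 at an unadjusted p under 0.05 (against 35.0% of all probe sets tested) and a median of 0.13. That list also holds hspd1 and hspe1, which belong to the mitochondrial chaperonin and not to CCT. Of 20 genes for tubulins and actins, the clients of CCT, 8 fell (against 10.4% of all probe sets tested) and none rose, with a median of -0.34. Among them were the muscle actin gene actc1b (-1.25 ± 0.12), tubb2 (-0.92 ± 0.11) and the cytoplasmic actin gene actb1 (-0.35 ± 0.10). This list is not separate from the cell type lists below: actc1b is also counted there under skeletal muscle and tubb5 under neurons.

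Markers of several cell types moved in the same comparison, in which 10.4% of all probe sets tested were called lower and 8.95% higher. All 10 skeletal muscle genes fell, with summed levels of 7183 to 10553 units in mutants of numbers 4 to 6, against 27561 to 44488 units in wild type. Of 12 genes of proliferating cells 10 fell, with sums of 8992 to 9706 units in mutants and 15151 to 16461 in wild type. Of 12 neuronal genes 11 fell, with sums of 1705 to 2071 units in mutants and 3325 to 4125 in wild type. Of 7 genes of brain regions and neural progenitors, the labelled material, 2 fell, gfap and pax6a, with sums of 1703 to 2189 units in mutants and 2449 to 2758 in wild type. Of 6 red blood cell genes 5 fell, and of 9 liver and yolk layer genes none passed. In bulk samples, fewer cells of a type and less RNA per cell cannot be told apart. The part of these markers in the subunit differences was not tested.

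In title numbers 1 to 3 the members showed no such difference between the arrays labelled mutant and the 1 wild-type array. None of 47 proteasome and none of 9 chaperonin probe sets passed, against 0.0553% higher, 0.673% lower and 0.728% in either direction among all probe sets tested, and 1 proteasome probe set had an unadjusted p under 0.05, against 10.3% of all. The median was -0.03 for the proteasome, -0.02 for the chaperonin and 0.02 for all probe sets. psmb1 read 1547, 1519 and 1486 units in the arrays labelled mutant and 1486 units in the wild-type array. psmb4 read 1544, 1462 and 1508 units in the arrays labelled mutant and 1533 units in the wild-type array. cct6a read 2461, 2377 and 2432 units in the arrays labelled mutant and 2418 units in the wild-type array. A single wild-type array gives no spread of its own and borrows that of the other groups. These are also the arrays in which supt5h did not go with the label.

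The difference between the 2 sets was tested as an interaction. No member passed, against 0.903% higher, 2.39% lower and 3.29% in either direction among all probe sets tested. Of 47 proteasome probe sets, 16 had an unadjusted p under 0.05, against 19.9% of all probe sets tested, and the median difference of the effects was 0.31. psmb2 came nearest (0.63 ± 0.16, limma adjusted p = 0.0592), followed by psmb4 (0.54 ± 0.15, limma adjusted p = 0.0661). The mutant effect on these genes was thus not shown to differ between the sets.

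Over all 10 arrays at 36 h, with the set as a block, 3 proteasome probe sets rose and none fell, against 6.00% higher, 7.13% lower and 13.1% in either direction among all probe sets tested. They were psmb1 (log2 0.40 ± 0.12, limma adjusted p = 0.0400), psmb4 (0.34 ± 0.10, adjusted p = 0.0495) and psmd8 (0.32 ± 0.09, adjusted p = 0.0357). No chaperonin probe set passed, with 2 of 9 at an unadjusted p under 0.05, against 30.6% of all. With the title number as a block the count was 1. Wild type 1 decides much of it: 16 proteasome probe sets rose and 1 fell without that array. Numbers 1 to 3 then hold no wild type, so the mutant difference comes from numbers 4 to 6 alone. The arrays labelled mutant of numbers 1 to 3 add only to the estimate of spread. That count is therefore not separate from the result of numbers 4 to 6, and the share of all probe sets called in that fit is not given here. Leaving out the array labelled mutant 1, 2 or 3 gave 1, 0 or 2 higher calls, and leaving out any array of numbers 4 to 6 gave 0.

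The injected embryos of the 12-somite stage give a further comparison. Of 49 proteasome probe sets 1 rose and none fell, against 3.72% of all probe sets tested called higher and 7.55% lower. At an unadjusted p under 0.05 there were 7, against 25.9% of all. The median was 0.14 for the proteasome, -0.03 for the chaperonin and -0.02 for all probe sets. psmd11b, a lid subunit that braces the cap against the core, read 439, 468 and 446 units after Foggy(DelCter) RNA, against 268, 343 and 308 units after control RNA. It was 1.46-fold higher (log2 0.54 ± 0.13, limma adjusted p = 0.0201), with no overlap. The call was lost when Foggy(DelCter) 2 or 3, or control 1 or 3, was left out. At 36 h psmd11b read 244, 266 and 234 units in mutants of numbers 4 to 6 and 236, 226 and 219 in wild type.

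psmb4 came next, with 2293, 2267 and 2732 units after Foggy(DelCter) RNA and 1814, 1848 and 1898 units after control RNA. It did not pass (log2 0.38 ± 0.12, limma adjusted p = 0.0698), although its groups did not overlap. All 7 constitutive beta probe sets had differences above 0, with a median of 0.19, and none passed. psmb1 read 2062, 1858 and 2177 units after Foggy(DelCter) RNA and 1753, 1793 and 1752 units after control RNA (log2 0.20 ± 0.12, limma adjusted p = 0.323). For psmc2 the values were 1548, 1364 and 1413 units after Foggy(DelCter) RNA and 1160, 1136 and 1153 units after control RNA (log2 0.32 ± 0.12, limma adjusted p = 0.102). In deposited intensity, 16 of 49 proteasome probe sets (32.7%) were higher in every Foggy(DelCter) array than in every control array, against 13.3% of all probe sets tested, and 1, of psmd1, was lower in every one, against 17.6%.

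No chaperonin probe set passed at 12 somites. tcp1 read 2373, 1947 and 1906 units after Foggy(DelCter) RNA and 2285, 2222 and 2247 units after control RNA (log2 -0.12 ± 0.13, limma adjusted p = 0.579). cct6a read 2501, 2404 and 2985 units after Foggy(DelCter) RNA and 2972, 2615 and 2630 units after control RNA (log2 -0.06 ± 0.13, limma adjusted p = 0.809). Both overlapped. At an unadjusted p under 0.05 there was 1 of 9, the second probe set of cct2. It read 15.4 to 28.6 units on these 6 arrays, where tag controls reached up to 23.9, so no difference is read from it. Among the listed partner genes, hspe1 rose by 0.55 ± 0.12 and the ubiquitin-conjugating enzyme gene ube2h fell by 0.49 on the log2 scale. hspe1 encodes the lid of the mitochondrial chaperonin, a complex separate from CCT. Over all probe sets tested here, 3.72% were called higher and 7.55% lower. Of 18 tubulin and actin genes 4 fell and none rose. Of 4 skeletal muscle genes tested here 1 fell, and of 7 liver and yolk layer genes 4 fell, with sums of 8517 to 9583 units after Foggy(DelCter) RNA and 17456 to 18290 units after control RNA. In the same order, sums were 836 to 873 and 1275 to 1342 units for neurons. They were 419 to 670 and 863 to 1236 units for skeletal muscle, and 547 to 618 and 719 to 896 units for red blood cells. Sums for proliferating cells and for brain regions and neural progenitors overlapped. The log2 ratio of the 3′ to the 5′ gapdh probe sets was 0.63, 0.60 and 0.89 after Foggy(DelCter) RNA, against 0.63, 0.42 and 0.43 after control RNA. The part of these in the subunit values was not tested.

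The difference between the mutant effect in numbers 4 to 6 and the Foggy(DelCter) effect was tested in 1 fit. No member passed, against 5.29% higher, 4.99% lower and 10.3% in either direction among all probe sets tested, and 6 of 49 proteasome and 2 of 9 chaperonin probe sets had an unadjusted p under 0.05, against 25.2% of all. The smallest adjusted p was 0.0777, for a psmd1 probe set (0.85 ± 0.29, limma), and psmd11b differed by -0.43 ± 0.15 (limma adjusted p = 0.0886).

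**Figure D5:**
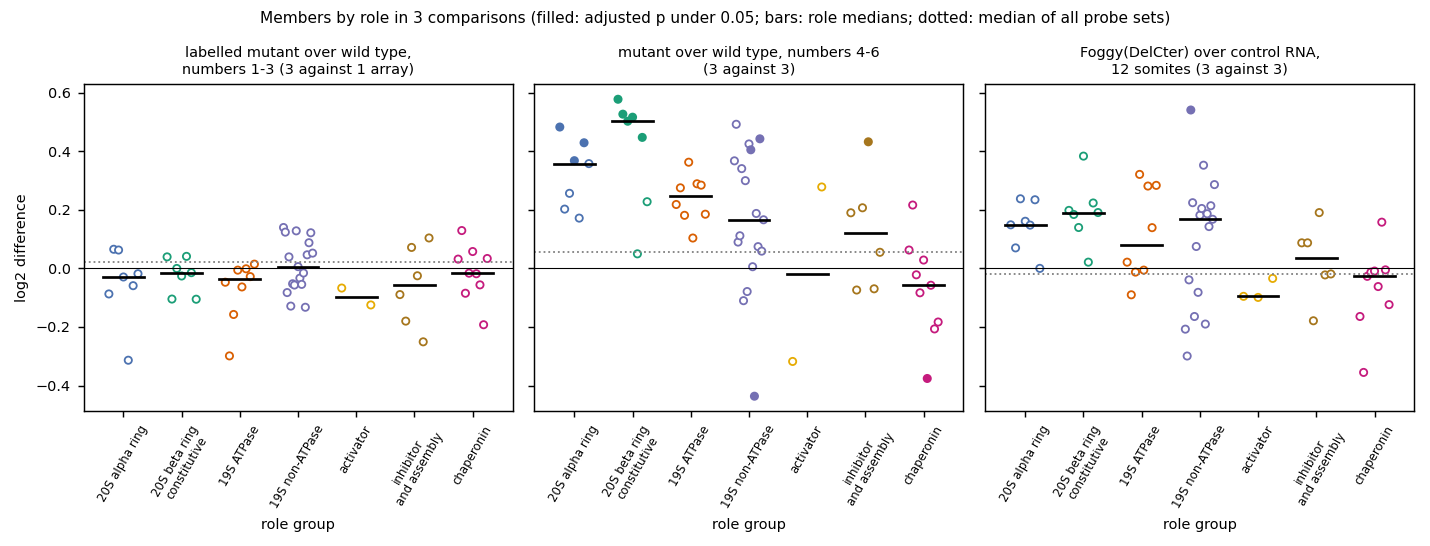
Log2 difference (y axis) of each tested probe set by role (x axis), in numbers 1 to 3, numbers 4 to 6 and the injected embryos, with filled points past an adjusted p of 0.05, bars at role medians and a dotted line at the median of all probe sets tested. The alpha and beta medians are 0.36 and 0.50 in numbers 4 to 6, 0.15 and 0.19 in the injected embryos, and -0.03 and -0.02 in numbers 1 to 3.

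Between the sets, calls in either direction were no more frequent among the members than on the whole array, but most proteasome calls were lower. In the arrays labelled mutant, numbers 1 to 3 against numbers 4 to 6, 7 proteasome probe sets were higher, 25 lower and 15 not called, against 34.3% higher, 37.1% lower and 71.4% in either direction among all probe sets tested. That is 68.1% of the proteasome probe sets, and 55.6% of the chaperonin ones were called. The median was -0.26 for the proteasome and -0.04 for all. All 14 core probe sets had negative differences and 10 were called lower, among them psmb6 with 987, 1025 and 966 units in numbers 1 to 3, against 1963, 2039 and 1820 units in numbers 4 to 6 (log2 -0.73 ± 0.09, limma adjusted p = 5.50e-05). The 19S members went both ways: psmd7, a lid subunit, was higher (0.65 ± 0.10) and psmd1 lower (-0.89 ± 0.18 and -0.63 ± 0.16 in its 2 probe sets). psmd12 had probe sets called in opposite directions, with -0.29 ± 0.09 in one and 0.82 ± 0.13 in the other.

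Chaperonin subunits were also called in both directions between the sets, where 34.3% of all probe sets tested were higher and 37.1% lower. Calls both ways therefore do not set them apart. cct8 (log2 0.63 ± 0.11), cct6a (0.45 ± 0.09) and cct3 (0.30 ± 0.10) were higher in numbers 1 to 3, while cct2 (-0.60 ± 0.11) and tcp1 (-0.54 ± 0.16) were lower. tcp1 read 1028, 844 and 867 units in numbers 1 to 3, against 1723, 1784 and 1207 units in numbers 4 to 6. Without quantile normalization the median of all probe sets was 0.14 in place of -0.04, the chaperonin counts became 2 higher and 5 lower, and the proteasome counts 9 higher and 30 lower. Without mutant 4 or mutant 5, 1 chaperonin probe set was lower instead of 2. Genotype label, set and material are mixed here, and supt5h itself was higher in numbers 1 to 3 (2.04 ± 0.10).

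Across stages, wild type at 36 h (numbers 4 to 6) was set against control RNA embryos at 12 somites, in arrays normalized together. Here 3 proteasome probe sets were higher and 14 lower of 49, against 25.0% higher and 32.3% lower among all. The median was -0.21, against -0.09 over all probe sets. The genes psme1 and psmb10 were not tested in numbers 4 to 6, and their levels at 12 somites raise the mean that the filter uses here. They are therefore given as levels only. The 49 probe sets, the 14 lower calls and the median were taken without leaving these genes out. No stage difference of the proteasome genes as a group is read from those values. psme1, the partner of psme2, read 16.7, 12.3 and 1.71 units at 36 h, against 57.3, 58.1 and 68.4 units at 12 somites. The mean of control embryos, 61.2 units, was 3.96 times 15.4 units, the highest tag control of those 3 wild-type arrays. Wild type 4 itself read above that level. For psmb10 the mean of control embryos, 65.6 units, was 4.25 times the same level. psmc1a was higher at 36 h (log2 0.55 ± 0.12) and its sister gene psmc1b lower in 2 probe sets (-0.71 ± 0.14 and -0.52 ± 0.15). Of the chaperonin, cct8 was higher at 36 h (0.42 ± 0.11), and cct5 (-0.54 ± 0.12), tcp1 (-0.47 ± 0.13) and cct3 (-0.32 ± 0.12) were lower. Stage, injection and material differ together and cannot be told apart. The 3 higher calls became 1 without wild type 4 or 5 or control 1 or 3, and the 14 lower calls became 9 without control 2.

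Over all 16 arrays, the mean standardised level of the 40 proteasome genes detected throughout was most like that of eif3f (r = 0.925), zgc:66427 (0.921), erh (0.913), btf3l4 (0.911) and snrpf (0.904), out of 8256 probe sets of other genes. The chaperonin mean was most like caprin1a (0.936), copg2 (0.930), rack1 (0.929), foxm1 (0.929) and dvl2 (0.919). Within the complexes, the median pairwise r over 16 arrays was 0.69 for the 20S core, 0.25 for the ATPases, 0.26 for the other 19S genes and 0.38 for the chaperonin. These values are descriptions: the arrays share set, stage and scaling and fall into clusters by set and stage.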

How the data were processed

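RNA of 16 zebrafish samples was read on 1-colour Affymetrix arrays. The deposited values are linear intensity, 1 per probe set and array, scaled by the authors to a 2% trimmed mean of 150.0 units (a property found from the values). Neither the software nor the probe summary is known: they are not given in the sources used. Arrays have no sequencing depth; their number and the background limit precision.

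Groups came from the sample titles and descriptions. Of 15617 probe sets 115 controls were left out. Symbols came from the platform annotation (10795 probe sets had 1 symbol, 135 several, 4572 none), with updates from RefSeq names that altered no member. Values were log2(intensity + 16). The 36 h arrays were quantile normalized over all 10 (their log2 medians differed by 0.373), the 12-somite arrays were used as deposited (0.103), and fits across stages were quantile normalized over all 16. Probe sets under the 30th percentile were left out, which kept 10851. Fits used lmFit and eBayes of limma 3.58.1 (R 4.3.3), 2-sided, with Benjamini-Hochberg adjustment over all probe sets tested and calls at 0.05. The fitting was tested on simulated data. No p was adjusted over the members alone.

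The members, gene lists and tests were chosen with earlier results of these data known. By rule, values per array are given for supt5h, each chaperonin gene (its probe set with the highest mean), the 2 members of each proteasome role with the smallest p in numbers 4 to 6, and the 2 with the smallest p at 12 somites and over all 10 arrays. Members called against their role's median and genes with opposite calls are named. Others, such as psmb5, psmb10, psmd1, psmd3, psmd4b and psme1, were chosen after their values were seen.

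Title numbers are shared between groups. Same-numbered arrays deviated together at 12 somites (r of 0.237, 0.230 and 0.181). The labels do not state pairs. The fits given here for 12 somites hold no pair term, and a block for the title number was an alternative. At 36 h same-numbered arrays were not fitted as pairs in the main fits either. Over all 10 arrays the correlations (0.691 to 0.903) hold the difference between the sets. Within numbers 4 to 6 they were 0.0609 for number 4, 0.278 for number 5 and 0.355 for number 6. Alternatives were the scaling, the filter, pseudocounts (1 or 64), a robust prior with an intensity trend, the blocks, 1 fit over all groups, and each array left out. Promoter motifs and sequences were not analysed here.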

Additional observations from a re-analysis of the deposited data

Results flagged for a closer look

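Among 46 groups checked (23 named members in the 4 wild-type and 6 mutant-labelled arrays at 36 h), 1 held a sample far from the others. These groups mix title numbers 1 to 3 and 4 to 6, which stand apart, so no rate expected by chance is given. A flag on wild type 1 cannot be told apart from the difference between the sets. psme2, a subunit of a proteasome activator, read 62.1 units in wild type 1, against 27.8 to 29.1 units in the other 3 wild-type arrays. The gap was 0.949 of the range. Wild type 1 is the only wild-type array of title numbers 1 to 3, and the 3 arrays labelled mutant of that set read 53.4, 62.3 and 60.5 units.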

How the results depend on the processing

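In mutants of numbers 4 to 6, the 11 higher proteasome calls became 7 with no filter and 7 with a pseudocount of 1. The count was 16 with the title number as a replicate block. Same-numbered arrays correlated at 0.0609 for number 4, 0.278 for number 5 and 0.355 for number 6. The labels do not state pairs, so whether these samples were paired is not settled. Leaving out 1 array gave 3 to 7 higher and 0 to 1 lower proteasome calls. The lower chaperonin call, cct6a, was 0 with no filter, 0 with a pseudocount of 1 and 0 without any 1 array. Over all 10 arrays, the 3 higher proteasome calls became 0 with no filter, 0 with a pseudocount of 1, 5 with a pseudocount of 64, 1 with the replicate block and 0 with no set block. Chaperonin probe sets called lower, 0 in that fit, became 1 with the filter at the 60th percentile, 1 with a pseudocount of 64 and 1 with an intensity trend. Leaving out 1 array gave 0 to 16 higher and 0 to 1 lower proteasome calls and 0 to 1 lower chaperonin calls. The 16 came without wild type 1, where the mutant difference comes from numbers 4 to 6 alone. At 12 somites, the 1 higher proteasome call became 2 with the filter at the 60th percentile, 3 with a pseudocount of 64, 3 with an intensity trend and 2 in 1 fit over 4 groups. It was 0 to 1 with 1 array left out and 1 with the replicate block, which changed no other call count there, and 1 chaperonin probe set was lower with a pseudocount of 1. Between the sets, the 2 lower chaperonin calls became 5 on deposited values and 1 to 2 with 1 array left out. Between stages, the 3 lower chaperonin calls became 1 on deposited values, and the 3 higher proteasome calls became 1 with no filter and 1 to 2 with 1 array left out, while the 14 lower ones became 9 to 13. Fewer arrays, or more probe sets tested without a filter, enter these fits by construction, and otherwise the cause was not tested. Shares of all probe sets called in these alternatives are not given here, so the changed counts are not read as particular to the members. The members psmb8a, psmb9a, psmb12, psmb13a and psma6l did not exceed the highest tag control on most arrays. A lack of calls for them is no sign of equal levels.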
